A study of Mus musculus with 6 samples.

Results

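Line 6419c5 is a mouse pancreatic ductal adenocarcinoma cell line, and its gene expression was set against that of lines 2838c3 and 6499c4, grown and treated alongside it. The comparison took both RNA sequencing libraries of 6419c5 and all 4 libraries of the other lines, 6 in the series. A gene counted only where 6419c5 differed from each of the other 2 lines, in the same direction. Per the labels, the cells came from the Stanger Lab, and each line was given for 16 hours either its vehicle, DMSO, or G-1 at 250 nM, a small molecule that activates the oestrogen receptor GPER at the cell membrane. Each line therefore has 1 vehicle and 1 G-1 library. The 2 libraries of a line differ in treatment, a term for treatment was kept in the model, and nothing in the labels says that they came from separate cultures, so the p-values measure the spread left after line and treatment among these 6 libraries.

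As background, lines of this kind are clonal derivatives of tumours that arise in the pancreas of genetically engineered mice. When implanted in mice with an intact immune system, 6419c5 has been studied as a clone that forms tumours with few T cells, and 2838c3 and 6499c4 as clones whose tumours hold many. Tumour cells can shape that outcome through secreted chemokines, prostaglandins and surface ligands, through the matrix they lay down, and through nutrients they consume. The cultures here hold tumour cells without a host, so the values describe the lines and not the tumours.

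Levels are in FPKM, the deposited unit, which scales a gene's reads to its length and to the size of the library. Pairs of values are given throughout as vehicle, then G-1. Reads in genes ranged from 5456069 to 8891141, the lowest being the G-1 library of 6419c5. Keratin genes of ductal epithelium were abundant in each library, with Krt18 at 2583 and 2648 FPKM in 6419c5, 1521 and 1525 in 2838c3 and 1560.2 and 1595 in 6499c4. Most defining markers of cells from the tumour surroundings were listed at or near 0. Of 22 immune cell markers, Cd3d, Cd4, Cd8a, Adgre1, C1qa and Tyrobp were listed at 0 in all 6 libraries, and the summed level of the 22 was 7.76 to 11.6 FPKM in 6419c5 and 1.35 to 3.99 in the other 4. In 6419c5 15 of the 22 were listed at 0. The level filter was reached by 3, and 1 of these, S100a9, was higher in 6419c5 (values below). Of 15 fibroblast and stellate cell markers, none reached the level filter, Col1a2, Dcn, Lum, Postn and Thy1 were listed at 0 in all libraries, and the sum was 3.03 to 4.98 FPKM in 6419c5 against 0.420 to 0.891. A listed 0 can be a failed estimate: Oaz1 and Amd1, polyamine genes that growing cells use, were at 0 in 5 and in all 6 libraries. In these bulk samples, more RNA per cell and more cells that express a gene cannot be told apart.

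Of the 10748 genes whose mean over the 6 libraries reached 1 FPKM, 1206 (11.2%) were higher in 6419c5 than in both other lines and 915 (8.51%) were lower. The test was limma's moderated linear model on log2(FPKM + 1), and a gene was called where the Benjamini-Hochberg adjusted p was under 0.05 against each line and both differences had the same sign. A difference of at least 1 log2 unit from each line was held by 221 of the higher genes (2.06% of those tested) and by 86 of the lower (0.8%). In 2106 of the 2121 called genes the 2 libraries of 6419c5 lay outside the range of the other 4, which was so for 38.1% of all genes tested. By the same rule 2838c3 had 1732 higher and 1611 lower genes and 6499c4 had 1286 and 1491, so 6419c5 had the fewest calls of the 3 lines. With 6419c5 represented by its G-1 library alone the counts were 694 and 472, and with its vehicle library alone 673 and 395. For the gene lists below, brackets such as (5 without 6419c5 G-1) give the count with that library left out, wherever it moved by more than 1.5 times. The median gene differed by -0.004 log2 units from the mean of the other lines. The level filter used all 6 libraries, so a gene near 0 in the other lines could pass through 6419c5 alone. Such genes add to the higher counts and medians, of the lists as of all genes. For each called gene whose 6 values are given below, both 6419c5 libraries lay on the same side of the other 4, without overlap.

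**Figure D1:**
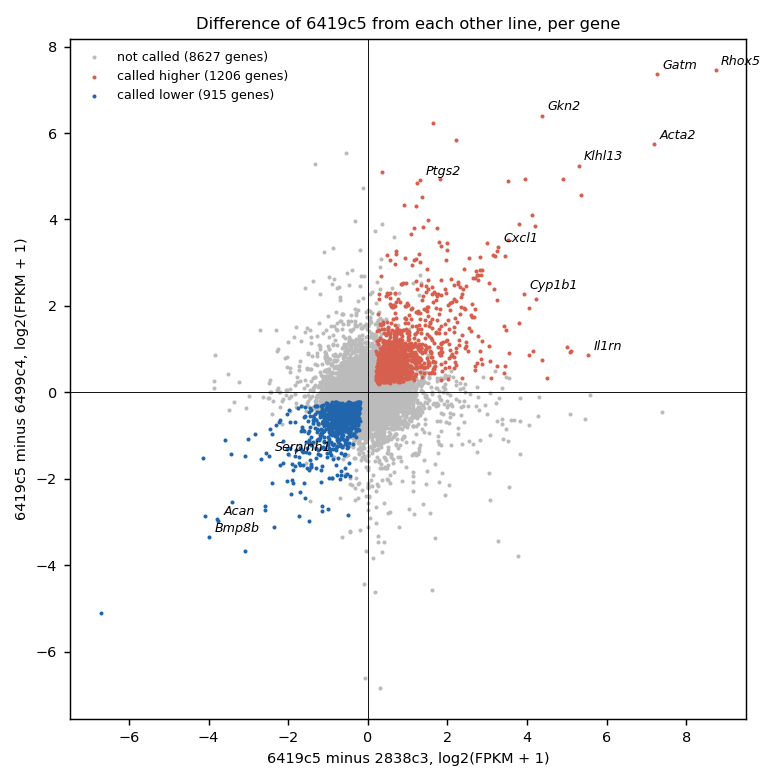
Difference of 6419c5 from 2838c3 (horizontal) and from 6499c4 (vertical) on the log2(FPKM + 1) scale, with 1 point for each of 10748 genes. The 1206 genes called higher fill the upper right and the 915 called lower the lower left, and Rhox5, Gatm and Acta2 sit farthest to the upper right.

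Rhox5, Gatm and Acta2 had the largest differences of any called gene. Rhox5 is an X-linked homeobox gene whose normal expression is mainly in the reproductive tract and the early embryo. Its level was 436 and 478 FPKM in 6419c5, 0.146 and 0 in 2838c3 and 2.05 and 1.25 in 6499c4. It was among the abundant messages of 6419c5 and close to absent in the other 2 lines, with 2493 and 2083 reads in 6419c5, 1 and 0 in 2838c3 and 15 and 8 in 6499c4. The log2 differences were 8.74 ± 0.15 from 2838c3 and 7.45 ± 0.15 from 6499c4 (larger adjusted p = 1.93e-07), each ± standard error (SE) with 2 libraries per line, and the mean level was 278 times that of 6499c4. Of 34 listed Rhox cluster and germline genes, 31 were listed at 0 in both 6419c5 libraries, and Rhox5 alone passed the level filter. The tested genes that lie nearest to it on the chromosome in the RefSeq annotation, Rnf113a1 and Zbtb33, had log2 differences of 0.12 and -0.40 and were not called.

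Gatm encodes the amidinotransferase that carries out the first step of creatine synthesis from arginine and glycine. Its level was 162 and 165 FPKM in 6419c5, 0 and 0.149 in 2838c3 and 0 and 0 in 6499c4. Both 6419c5 libraries were high and the other 4 held 3 reads in all, against 2725 and 2120 reads. Differences were 7.26 ± 0.13 from 2838c3 and 7.36 ± 0.13 from 6499c4 (larger adjusted p = 1.41e-07). Its nearest tested neighbours on the chromosome were Shf (-1.19, called lower) and Spata5l1 (0.51, not called).

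Acta2, smooth-muscle alpha-actin, is the usual marker of smooth muscle and of activated fibroblasts. Its level was 224 and 137 FPKM in 6419c5, 0.227 and 0.182 in 2838c3 and 2.12 and 2.47 in 6499c4, from 4108 and 1913 reads in 6419c5, 5 and 4 in 2838c3 and 50 and 51 in 6499c4. The 6419c5 libraries stood far above the others, which did not overlap with them, and the G-1 library held less than the vehicle library. Differences were 7.19 ± 0.20 from 2838c3 and 5.74 ± 0.20 from 6499c4 (larger adjusted p = 2.14e-06), a mean level 879.8 times that of 2838c3 and 78.4 times that of 6499c4. In vehicle alone the log2 difference from the mean of the other lines was 6.84, and under G-1 alone it was 6.09, both from 1 library per line and without a test.

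The promoters of Rhox5 and Gatm are shown because the genes were expressed in 6419c5 and nearly silent in the other lines. Each sequence is the 250 bases before the start in RefSeq (GRCm38.p6), read 5′ to 3′ along the gene. In this pair capitals mark CG dinucleotides, the bases at which DNA methylation occurs. The median promoter of 32851 in the table held 6 of them, while Rhox5 (chrX:37754358-37754607, plus strand) held 4 and Gatm (chr2:122611278-122611527, minus strand) held 17. Methylation was not measured here, and in limma's test none of 11 tested genes of the DNA methylation machinery was called (1 higher and 1 lower at an unadjusted p under 0.05, none with limma-voom). Of all genes tested 11.2% were higher and 8.51% lower, so 11 genes are too few to read their lack of calls as a result.
Rhox5: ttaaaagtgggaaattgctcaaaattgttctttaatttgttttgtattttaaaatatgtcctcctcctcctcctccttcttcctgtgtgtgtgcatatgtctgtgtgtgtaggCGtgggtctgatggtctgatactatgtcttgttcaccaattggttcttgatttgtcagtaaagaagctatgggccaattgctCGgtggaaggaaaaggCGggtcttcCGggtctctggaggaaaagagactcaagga
Gatm: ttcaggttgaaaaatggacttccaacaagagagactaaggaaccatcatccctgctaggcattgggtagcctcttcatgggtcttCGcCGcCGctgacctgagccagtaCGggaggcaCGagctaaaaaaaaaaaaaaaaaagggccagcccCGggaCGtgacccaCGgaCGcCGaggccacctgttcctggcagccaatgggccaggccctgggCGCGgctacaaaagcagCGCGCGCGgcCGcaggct

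The promoters of Acta2, Acta1 and Myl7 are shown as examples of higher contractile genes that hold a CArG box, which others such as Mylk and Tnnt2 lacked in this window. Capitals mark the box, the motif to which serum response factor (SRF) binds, searched on both strands with at most 1 C or G allowed among its 6 inner letters. It was present in 8.59% of all promoters of this length, and in 9.78% of genes over all of their promoters. Acta2 (chr19:34255374-34255623, minus strand) held 2, which begin 84 and 34 bases before the start. Acta1 (chr8:123894776-123895025, minus strand) held 3, at 205, 154 and 73 bases, and Myl7 (chr11:5898783-5899032, minus strand) held 1, at 61 bases. A match describes the letters only, and binding was not measured.
Acta2: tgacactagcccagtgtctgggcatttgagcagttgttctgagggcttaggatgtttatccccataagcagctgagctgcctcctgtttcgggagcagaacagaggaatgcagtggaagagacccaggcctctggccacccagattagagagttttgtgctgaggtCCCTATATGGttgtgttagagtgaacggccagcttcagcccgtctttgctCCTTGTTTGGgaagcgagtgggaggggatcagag
Acta1: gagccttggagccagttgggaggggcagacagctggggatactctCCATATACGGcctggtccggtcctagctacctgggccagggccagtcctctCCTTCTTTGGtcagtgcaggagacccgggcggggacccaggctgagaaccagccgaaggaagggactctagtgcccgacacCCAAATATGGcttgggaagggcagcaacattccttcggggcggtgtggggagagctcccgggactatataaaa
Myl7: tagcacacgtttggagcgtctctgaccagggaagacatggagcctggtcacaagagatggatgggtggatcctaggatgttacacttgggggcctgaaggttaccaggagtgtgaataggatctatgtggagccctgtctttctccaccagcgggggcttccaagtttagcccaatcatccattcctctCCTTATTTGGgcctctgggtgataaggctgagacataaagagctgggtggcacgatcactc

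Contractile genes were the group around Acta2. Over the 3 contractile lists (smooth-muscle, SRF and MRTF, actin regulators), 34 of 101 tested genes were higher (33.7%) and 6 lower (5.94%), against 11.2% and 8.51% of all genes. The higher count was 21 without the 6419c5 vehicle library. Of 35 tested genes of the smooth-muscle contractile list alone, 15 were higher and 3 were lower, with a median log2 difference of 0.36 beside -0.004 for all genes. Without its member on chromosome 16, Mylk, 14 of 34 were higher and the median was 0.33. Despite its name the list also holds genes of skeletal and cardiac muscle, among them the higher members Acta1, Tnnt2 and Myl7. Mylk, the kinase that phosphorylates the myosin light chain, lies on chromosome 16, whose genes were mostly higher, as described below. Its level was 18.3 and 15.9 FPKM in 6419c5, 1.51 and 1.79 in 2838c3 and 1.86 and 1.65 in 6499c4. The 6419c5 libraries were far above all others, with differences of 2.77 ± 0.15 from 2838c3 and 2.71 ± 0.15 from 6499c4 (larger adjusted p = 1.71e-05). Cardiac troponin T, Tnnt2, was at 137 and 127 FPKM in 6419c5, 26.0 and 21.997 in 2838c3 and 32.1 and 34.3 in 6499c4, again without overlap. Tnnt2 differed by 2.42 ± 0.09 from 2838c3 and 1.96 ± 0.09 from 6499c4 (larger adjusted p = 9.46e-06). Acta1, the skeletal-muscle actin, was at 5.70 and 5.38 FPKM in 6419c5, 0.744 and 0.895 in 2838c3 and 0.209 and 0.556 in 6499c4. Its reads could be shared with Acta2, since actin coding sequences are nearly alike, and its differences were 1.85 ± 0.19 from 2838c3 and 2.25 ± 0.19 from 6499c4 (larger adjusted p = 0.000218). Fhl1, a LIM-domain protein of muscle, was at 5.62 and 4.28 FPKM in 6419c5, 0.592 and 0.435 in 2838c3 and 0.221 and 0.168 in 6499c4, high in 6419c5 and below 1 FPKM in the other 4 libraries. Fhl1 differed by 1.97 ± 0.18 from 2838c3 and 2.31 ± 0.18 from 6499c4 (larger adjusted p = 0.000159).

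Of the 15 higher members 9 kept the call without each library in turn: Acta2, Mylk, Fhl1, Tnnt2, Acta1, the light chain Myl6, the calponin Cnn2, the actinin Actn4 and the caldesmon Cald1. Actn4 was at 252 and 236 FPKM in 6419c5, 186 and 179 in 2838c3 and 174 and 168 in 6499c4, where the groups did not overlap but differed by only 0.42 and 0.51 on the log2 scale (larger adjusted p = 0.0016). Tagln, Tnnt1, Myl7, Myl12a and Actn1 did not pass without the 6419c5 vehicle library (larger adjusted p = 0.0738, 0.166, 0.0539, 0.0682 and 0.138). Cnn3 did not pass without the 6419c5 G-1 library (0.0544). Myl7, an atrial light chain, was at 26.6 and 18.4 FPKM in 6419c5, 0.396 and 0.199 in 2838c3 and 10.6 and 11.4 in 6499c4, so that 6419c5 was far above 2838c3 and nearer to 6499c4. Myl7 differed by 4.16 ± 0.16 from 2838c3 and 0.95 ± 0.16 from 6499c4 (larger adjusted p = 0.00303). The lower members were the nonmuscle myosin Myh10 (-1.55 and -1.38), filamin Flnc (-1.71 and -1.28) and Fhl3 (-1.05 and -0.51), with larger adjusted p of 4.98e-05, 5.17e-05 and 0.00399. The remaining 17 tested members were not called, among them Myl9, Tpm1, Tpm2, Smtn, Csrp1, Vcl and Flna.

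Genes that define mature smooth muscle were near 0: in 6419c5 Myh11 had 6 and 0 reads, Des 1 and 1, Cnn1 3 and 3, and Lmod1 was listed at 0. The summed level of all 8 smooth muscle cell markers was 163 to 255 FPKM in 6419c5 and 15.1 to 55.2 elsewhere, and in 6419c5 most of it was Acta2.

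In 6419c5 all 15 higher members of the smooth-muscle contractile list had less in the G-1 than in the vehicle library, compared with 53.7% of all genes called higher. Some of these shifts were small, such as -0.07 log2 units for Acta1 and -0.11 for Tnnt2, which differed by -0.23 in 2838c3. The same 15 genes were lower under G-1 in 13 cases in 2838c3 (56.6% of all genes called higher) and in 8 cases in 6499c4 (52.7%). Acta2 differed by -0.71 log2 units between G-1 and vehicle in 6419c5, by -0.05 in 2838c3 and by 0.15 in 6499c4. With 1 library per condition these shifts have no test, and the 15 genes come from the same libraries and are not replicates. The CArG box was found in 7 of the 14 higher members with a listed promoter and in 5 of the other 18 tested members with one.

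Genes of the SRF and MRTF axis and of the related YAP and TEAD programme, which couple actin tension to transcription, were next. Of 20 tested, 10 were higher and 4 of these kept the call without each library, namely Ctgf, Cyr61, Fos and Amotl2. None was lower in limma's test, at an unadjusted p under 0.05 or with limma-voom. The median was 0.43, and without 3 members on chromosome 16 it was 0.24, with 8 of 17 higher. The higher count was 5 without 6419c5 vehicle or 6419c5 G-1 and 6 without 2838c3 vehicle or 2838c3 G-1. Ctgf, a matricellular protein, was at 338 and 254 FPKM in 6419c5, 89.3 and 85.4 in 2838c3 and 105 and 79.1 in 6499c4. It was far higher in 6419c5 than in either line, by 1.74 ± 0.10 from 2838c3 and 1.68 ± 0.10 from 6499c4 (larger adjusted p = 2.16e-05). Cyr61, its relative, was at 499.7 and 489 FPKM in 6419c5, 285 and 233 in 2838c3 and 56.0 and 56.3 in 6499c4, where 6419c5 was highest and 6499c4 lowest. Cyr61 differed by 0.94 ± 0.09 from 2838c3 and 3.12 ± 0.09 from 6499c4 (larger adjusted p = 0.000164). Fos, an immediate early gene, was at 12.5 and 17.0 FPKM in 6419c5, 4.63 and 3.58 in 2838c3 and 4.07 and 5.12 in 6499c4. Fos differed by 1.62 ± 0.18 from 2838c3 and 1.49 ± 0.18 from 6499c4 (larger adjusted p = 0.000591).

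The transcription factor Tead2 is not on that list, so the count of lower genes there does not include it. Tead2 went the other way, at 1.56 and 1.02 FPKM in 6419c5, 38.6 and 36.5 in 2838c3 and 13.6 and 18.0 in 6499c4. It was low in 6419c5 and well expressed in both other lines, with differences of -4.08 ± 0.17 from 2838c3 and -2.87 ± 0.17 from 6499c4 (larger adjusted p = 2.29e-05). Among 46 tested actin regulators 9 were higher (5 without 6419c5 G-1) and 3 lower, with a median of 0.08. The bundling protein Fscn1 was at 22.2 and 16.3 FPKM in 6419c5, 116 and 102 in 2838c3 and 35.7 and 34.8 in 6499c4, lowest in 6419c5 and highest in 2838c3. Fscn1 differed by -2.45 ± 0.10 from 2838c3 and -0.86 ± 0.10 from 6499c4 (larger adjusted p = 0.000531). Marcks, which tethers actin to the membrane, was higher, at 32.8 and 36.2 FPKM in 6419c5, 21.7 and 18.3 in 2838c3 and 18.5 and 19.6 in 6499c4. Marcks differed by 0.76 ± 0.11 from 2838c3 and 0.82 ± 0.11 from 6499c4 (larger adjusted p = 0.00112).

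**Figure D2:**
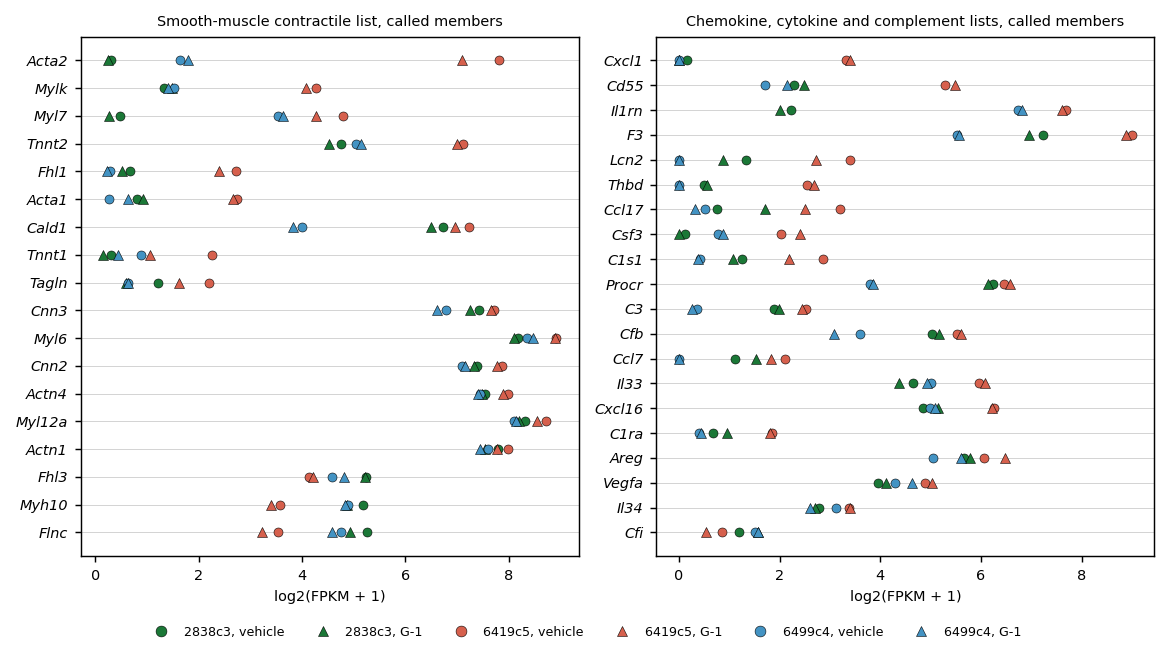
Level of each called member of the smooth-muscle contractile list (left) and of the chemokine, cytokine and complement lists (right), as log2(FPKM + 1) on the horizontal axis, with 1 point per library. Red symbols (6419c5) lie to the right of the green (2838c3) and blue (6499c4) ones for Acta2, Mylk, Tnnt2, Cxcl1, Cd55 and F3, and to the left for Myh10, Flnc and Cfi.

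Beyond these, several of the genes with the largest smaller difference from both lines are known from tissues other than the pancreatic duct. Klhl13, an adaptor of a cullin ubiquitin ligase, was at 43.6 and 43.5 FPKM in 6419c5, 0.133 and 0.133 in 2838c3 and 0.248 and 0.106 in 6499c4. The 6419c5 libraries were nearly equal and the other 4 were near 0, so the differences were 5.30 ± 0.15 from 2838c3 and 5.25 ± 0.15 from 6499c4 (larger adjusted p = 1.03e-06). Gkn1 and Gkn2, neighbouring genes for gastrokines secreted by surface cells of the stomach, were both abundant in 6419c5. Gkn1 was at 29.8 and 37.5 FPKM in 6419c5, 1.63 and 0.865 in 2838c3 and 0.269 and 0 in 6499c4 and differed by 3.96 ± 0.21 from 2838c3 and 4.93 ± 0.21 from 6499c4 (larger adjusted p = 1.47e-05). Gkn2 was at 82.5 and 111 FPKM in 6419c5, 3.76 and 3.62 in 2838c3 and 0 and 0.321 in 6499c4 and differed by 4.37 ± 0.15 from 2838c3 and 6.40 ± 0.15 from 6499c4 (larger adjusted p = 2.28e-06). Both genes were low in 2838c3 and lower still in 6499c4. Rps4l was at 11.2 and 9.76 FPKM in 6419c5, 0 and 0 in 2838c3 and 0 and 0 in 6499c4, listed at 0 in the other 4 libraries, but it is a close copy of another ribosomal protein gene and its reads could be misassigned.

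Wt1, a zinc-finger factor of kidney, gonad and mesothelium, was at 14.3 and 13.3 FPKM in 6419c5, 0.0756 and 0.0379 in 2838c3 and 0 and 0 in 6499c4. Bnc1, a zinc-finger factor of squamous epithelium and germ cells, was at 17.4 and 15.8 FPKM in 6419c5, 0 and 0 in 2838c3 and 0 and 0.0535 in 6499c4. Upk1b, a uroplakin of urothelium, was at 22.6 and 19.5 FPKM in 6419c5, 0.330 and 0.0662 in 2838c3 and 0.556 and 0.494 in 6499c4. All 3 were present in both 6419c5 libraries and at trace level in the others, with differences of 3.81 and 3.89, 4.14 and 4.10 and 4.21 and 3.85 (larger adjusted p = 6.32e-06, 5.12e-06 and 4.61e-06). B4galt4, a galactosyltransferase that lies beside Upk1b on chromosome 16, was at 31.4 and 28.4 FPKM in 6419c5, 0.0491 and 0 in 2838c3 and 0 and 0 in 6499c4. B4galt4 differed by 4.91 ± 0.16 from 2838c3 and 4.95 ± 0.16 from 6499c4 (larger adjusted p = 1.68e-06). Fstl1, a secreted glycoprotein also on chromosome 16, was at 34.5 and 27.9 FPKM in 6419c5, 1.75 and 1.88 in 2838c3 and 0.121 and 0.0346 in 6499c4. It was graded over the other lines, with 2838c3 above 6499c4, and differed by 3.51 ± 0.15 from 2838c3 and 4.90 ± 0.15 from 6499c4 (larger adjusted p = 6.07e-06). Tm4sf5, a tetraspan membrane protein, was at 42.4 and 41.6 FPKM in 6419c5, 0.120 and 0 in 2838c3 and 0.448 and 1.28 in 6499c4. Pcdh7, a protocadherin, was at 9.41 and 7.86 FPKM in 6419c5, 0 and 0.0129 in 2838c3 and 0 and 0 in 6499c4. Both were high in 6419c5 and at most 1.28 FPKM elsewhere, with differences of 5.34 and 4.56 and 3.25 and 3.26 (larger adjusted p = 8.63e-06 and 1.99e-05).

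Several of the lower genes were near 0 in 6419c5 and expressed in both other lines. Bmp8b, a bone morphogenetic protein, was listed at 0 in both 6419c5 libraries, and at 16.0 and 13.8 FPKM in 2838c3 and 8.43 and 10.1 in 6499c4. Its differences were -3.99 ± 0.15 from 2838c3 and -3.35 ± 0.15 from 6499c4 (larger adjusted p = 7.5e-06). Acan, the large proteoglycan aggrecan of cartilage, was at 0.381 and 0.275 FPKM in 6419c5, 20.1 and 14.2 in 2838c3 and 10.3 and 8.53 in 6499c4, low in 6419c5 and well expressed elsewhere. Acan differed by -3.76 ± 0.14 from 2838c3 and -2.96 ± 0.14 from 6499c4 (larger adjusted p = 9.39e-06).

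Ptk7, a pseudokinase of Wnt and planar polarity signalling, was at 0.230 and 0.259 FPKM in 6419c5, 15.5 and 16.7 in 2838c3 and 9.70 and 7.47 in 6499c4. Ptk7 differed by -3.78 ± 0.15 from 2838c3 and -2.94 ± 0.15 from 6499c4 (larger adjusted p = 1.42e-05). Sigirr, an inhibitory member of the interleukin-1 receptor family, was at 0.281 and 0.277 FPKM in 6419c5, 6.46 and 6.77 in 2838c3 and 8.56 and 6.33 in 6499c4, near 0 in 6419c5 and even in the others. Sigirr differed by -2.57 ± 0.17 from 2838c3 and -2.71 ± 0.17 from 6499c4 (larger adjusted p = 3.54e-05). Cdh13, a cadherin anchored by lipid, was at 7.89 and 6.18 FPKM in 6419c5, 46.0 and 48.0 in 2838c3 and 46.8 and 50.8 in 6499c4. Cdh13 differed by -2.59 ± 0.12 from 2838c3 and -2.64 ± 0.12 from 6499c4 (larger adjusted p = 6.69e-06), an example of a gene still expressed in 6419c5 at a fraction of the others' level. Other genes among the 15 most separated were Clic6, Mical1, Scara3, Tlcd2, Ociad2, Smarcd3, Etv4 and Igsf5, with a smaller difference of at least 1.89 log2 units in size.

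**Figure D3:**
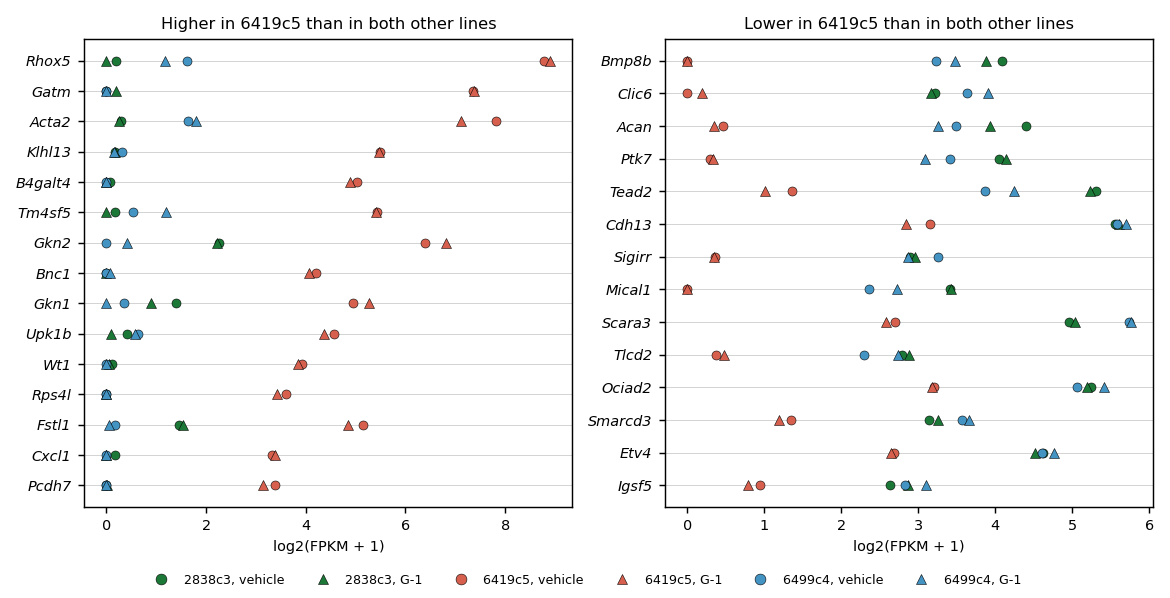
Named genes with the largest smaller difference in each direction, higher (left) and lower (right) in 6419c5, as log2(FPKM + 1) on the horizontal axis, with 1 point per library. In each gene shown both 6419c5 symbols (red) lie beyond the 4 symbols of the other lines, and Rhox5 reaches 436 and 478 FPKM.

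Matrix genes were called in both directions. Over the 7 matrix lists 27 of 100 tested genes were higher (27.0%) and 11 lower (11.0%), against 11.2% and 8.51% of all genes. The lower count was 6 without the 6419c5 G-1 library and 7 without the 6499c4 vehicle library. Of 8 tested collagens none was called higher in limma's test (1 at an unadjusted p under 0.05 and 1 with limma-voom). Col18a1, a basement membrane collagen, was lower at 23.3 and 22.4 FPKM in 6419c5, 37.5 and 41.5 in 2838c3 and 41.1 and 39.9 in 6499c4. Col18a1 differed by -0.77 ± 0.09 from 2838c3 and -0.80 ± 0.09 from 6499c4 (larger adjusted p = 0.00036). Of 12 laminin and basement membrane genes 3 were higher (1 without 2838c3 G-1 or 6419c5 vehicle) and 1 lower. Lamb1, a laminin chain of many basement membranes, was lower at 28.5 and 23.9 FPKM in 6419c5, 38.6 and 36.8 in 2838c3 and 42.9 and 37.4 in 6499c4. Lamb1 differed by -0.51 ± 0.08 from 2838c3 and -0.60 ± 0.08 from 6499c4 (larger adjusted p = 0.00184).

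Secreted glycoproteins and matricellular proteins were the matrix class with the most calls, 9 higher and 3 lower of 23, with a median of 0.34. The lower count was 1 without 6419c5 G-1. Of the 9 higher genes 8 kept the call without each library. Sparc, which binds collagen and modulates adhesion, was at 106 and 93.3 FPKM in 6419c5, 27.4 and 27.8 in 2838c3 and 3.39 and 1.42 in 6499c4. All 3 lines were apart, in the order 6419c5, 2838c3, 6499c4, and the differences were 1.81 ± 0.19 from 2838c3 and 4.94 ± 0.19 from 6499c4 (larger adjusted p = 0.000265). Thbs1, thrombospondin 1, was at 177 and 142 FPKM in 6419c5, 78.6 and 59.8 in 2838c3 and 7.94 and 6.34 in 6499c4. Thbs1 differed by 1.20 ± 0.08 from 2838c3 and 4.30 ± 0.08 from 6499c4 (larger adjusted p = 3.17e-05), in the same order of lines. Tnc, tenascin C, was at 5.42 and 3.62 FPKM in 6419c5, 0.0165 and 0 in 2838c3 and 0.415 and 0.439 in 6499c4, modest in 6419c5 and near 0 elsewhere. Tnc differed by 2.43 ± 0.21 from 2838c3 and 1.93 ± 0.21 from 6499c4 (larger adjusted p = 0.000334). Fn1, fibronectin, Ecm1 and Wisp1 were higher as well, by 0.56 and 0.72, 0.99 and 1.36 and 1.63 and 2.09 (larger adjusted p = 0.00103, 0.000198 and 0.000577), beside Ctgf and Cyr61. All 9 higher genes of this list had less in the G-1 than in the vehicle library of 6419c5, as did 7 of them in 2838c3 and 6 in 6499c4, without a test. Ltbp4, which stores latent TGF-beta in the matrix, was the lower gene that kept its call without each library, at 1.63 and 1.77 FPKM in 6419c5, 7.02 and 8.21 in 2838c3 and 3.83 and 4.24 in 6499c4. Ltbp4 differed by -1.67 ± 0.14 from 2838c3 and -0.90 ± 0.14 from 6499c4 (larger adjusted p = 0.00168).

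Collagen processing genes did not share a direction, with 3 higher and 2 lower of 15 (1 without 2838c3 vehicle, 2838c3 G-1, 6419c5 vehicle, 6419c5 G-1, 6499c4 vehicle or 6499c4 G-1). Serpinh1, the chaperone of collagen folding, was lower at 19.0 and 15.0 FPKM in 6419c5, 94.8 and 102 in 2838c3 and 49.4 and 47.9 in 6499c4, below both other lines in each library. Serpinh1 differed by -2.47 ± 0.11 from 2838c3 and -1.48 ± 0.11 from 6499c4 (larger adjusted p = 5.79e-05). The lysyl oxidase Loxl3 and the prolyl hydroxylase P4ha1 were higher (1.97 and 1.19 and 0.95 and 0.86, larger adjusted p = 0.00194 and 0.00101). Of 22 matrix proteases and inhibitors 7 were higher and 2 lower, with a median of 0.45. The lower count was 1 without 2838c3 G-1, 6419c5 vehicle, 6419c5 G-1, 6499c4 vehicle or 6499c4 G-1. Mmp13, a collagenase, was at 56.7 and 44.6 FPKM in 6419c5, 20.3 and 14.1 in 2838c3 and 2.61 and 1.87 in 6499c4. It differed by 1.52 ± 0.10 from 2838c3 and 3.99 ± 0.10 from 6499c4 (larger adjusted p = 4.08e-05). Timp3, a matrix-bound inhibitor, was at 119 and 107 FPKM in 6419c5, 49.9 and 42.1 in 2838c3 and 11.9 and 11.1 in 6499c4, and for both genes 6419c5 was above 2838c3 and 2838c3 above 6499c4. Timp3 differed by 1.28 ± 0.08 from 2838c3 and 3.19 ± 0.08 from 6499c4 (larger adjusted p = 2.83e-05). Adamts1, a protease on chromosome 16, was at 9.34 and 8.35 FPKM in 6419c5, 0.120 and 0.264 in 2838c3 and 0.782 and 0.613 in 6499c4. Adamts1 differed by 3.05 ± 0.18 from 2838c3 and 2.54 ± 0.18 from 6499c4 (larger adjusted p = 4.91e-05).

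At the cell surface, Sdc4, a heparan sulphate proteoglycan of adhesion sites, was at 258 and 236 FPKM in 6419c5, 111 and 115 in 2838c3 and 83.0 and 85.4 in 6499c4, highest in 6419c5. Sdc4 differed by 1.12 ± 0.07 from 2838c3 and 1.54 ± 0.07 from 6499c4 (larger adjusted p = 4.02e-05). Integrins had 3 higher members of 12, and none was lower in limma's test, at an unadjusted p under 0.05 or with limma-voom. Itgb4, the partner of laminin in hemidesmosomes, was at 26.1 and 25.7 FPKM in 6419c5, 17.1 and 16.7 in 2838c3 and 11.3 and 12.1 in 6499c4 and differed by 0.59 ± 0.09 from 2838c3 and 1.08 ± 0.09 from 6499c4 (larger adjusted p = 0.00159). Itgav, which binds fibronectin and latent TGF-beta, was at 61.9 and 57.6 FPKM in 6419c5, 45.7 and 40.6 in 2838c3 and 24.2 and 21.6 in 6499c4 and differed by 0.46 ± 0.07 from 2838c3 and 1.35 ± 0.07 from 6499c4 (larger adjusted p = 0.0019). Both were lowest in 6499c4. The third was Itgb3 (1.30 and 0.46, larger adjusted p = 0.0419), which lost the call without either 6419c5 library (larger adjusted p = 0.253 and 0.112) and without the 6499c4 vehicle library (0.279).

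Over the 10 immune-signal lists 57 of 172 tested genes were higher in 6419c5 (33.1%) and 9 lower (5.23%), against 11.2% and 8.51% of all genes. S100a9, a calprotectin subunit of neutrophils that epithelia also make, was among the immune cell markers and was higher, at 3.21 and 6.31 FPKM in 6419c5, 0 and 0 in 2838c3 and 0 and 0 in 6499c4. The part of immune cell markers in these counts was not tested. Without the 6419c5 G-1 library the counts were 34 and 5, and 31 of the 57 kept the call without each library. A list of 10 tumour-cell factors that have been studied in T-cell-low clones was drawn up with 6419c5 among those clones, so it is no independent evidence of a direction. That list is 1 of the 10 immune-signal lists, so the 57 higher genes include its higher members. Of its 9 tested members Cxcl1, Csf3, Ptgs2 and Epha2 were higher, also without each library in turn, and none was lower in limma's test, at an unadjusted p under 0.05 or with limma-voom. Cxcl1, a chemokine that draws neutrophils through the receptor CXCR2, was at 8.998 and 9.48 FPKM in 6419c5, 0.123 and 0 in 2838c3 and 0 and 0 in 6499c4, from 61 and 49 reads in 6419c5, 1 and 0 in 2838c3 and 0 and 0 in 6499c4. It was detected in both 6419c5 libraries and by 1 read in the rest, with differences of 3.27 ± 0.18 from 2838c3 and 3.36 ± 0.18 from 6499c4 (larger adjusted p = 1.75e-05). Csf3, the granulocyte colony-stimulating factor G-CSF, was at 3.08 and 4.31 FPKM in 6419c5, 0.0857 and 0 in 2838c3 and 0.721 and 0.824 in 6499c4. Csf3 differed by 2.16 ± 0.20 from 2838c3 and 1.39 ± 0.20 from 6499c4 (larger adjusted p = 0.00134). Ptgs2, the cyclooxygenase that starts prostaglandin synthesis, was at 326 and 381 FPKM in 6419c5, 145 and 136 in 2838c3 and 10.8 and 10.6 in 6499c4, graded over the lines with 6499c4 far below. Ptgs2 differed by 1.32 ± 0.09 from 2838c3 and 4.91 ± 0.09 from 6499c4 (larger adjusted p = 4.77e-05). Epha2, an ephrin receptor kinase, was at 307 and 291 FPKM in 6419c5, 169.9 and 174 in 2838c3 and 135 and 134 in 6499c4. Epha2 differed by 0.79 ± 0.07 from 2838c3 and 1.15 ± 0.07 from 6499c4 (larger adjusted p = 0.000115).

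Cxcl1 is shown with its promoter because the gene was all but silent in the other lines. Its 250 bases (chr5:90890995-90891244, plus strand) held a site of the NF-kB type, in capitals, read on both strands as 2 overlapping matches that begin 71 and 70 bases before the start. Such a site was found in 7.25% of all promoters of this length.
Cxcl1: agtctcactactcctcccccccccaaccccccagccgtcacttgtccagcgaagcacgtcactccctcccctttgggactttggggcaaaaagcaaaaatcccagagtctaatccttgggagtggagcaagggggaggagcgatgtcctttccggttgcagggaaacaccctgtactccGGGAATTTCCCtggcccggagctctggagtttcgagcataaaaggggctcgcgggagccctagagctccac

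Of 14 tested chemokines 4 were higher (2 without 6419c5 vehicle), with a median of 0.14. None was called lower in limma's test (1 at an unadjusted p under 0.05 and 1 with limma-voom, and 1 when the 2838c3 vehicle or the 6499c4 G-1 library was left out). Cxcl16, a membrane-bound chemokine for CXCR6, was at 75.9 and 74.0 FPKM in 6419c5, 27.7 and 34.2 in 2838c3 and 30.6 and 32.9 in 6499c4, at about the same level in both other lines. Cxcl16 differed by 1.26 ± 0.10 from 2838c3 and 1.21 ± 0.10 from 6499c4 (larger adjusted p = 8.41e-05). Other chemokines that draw neutrophils had their highest level in 2838c3. Cxcl5 was at 42.2 and 45.9 FPKM in 6419c5, 57.9 and 52.3 in 2838c3 and 21.4 and 20.0 in 6499c4, and Cxcl3 at 6.60 and 4.51 FPKM in 6419c5, 21.1 and 21.8 in 2838c3 and 1.29 and 1.23 in 6499c4. These 2 were chosen after their values were seen.

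Among 22 cytokines and growth factors 7 were higher, with a median of 0.55, and none was lower in limma's test (1 at an unadjusted p under 0.05 and none with limma-voom). Lcn2, Csf3, Il33 and Il1rn kept the call without each library. Il1rn, the interleukin-1 receptor antagonist, was at 205 and 193 FPKM in 6419c5, 3.65 and 3.05 in 2838c3 and 106 and 112 in 6499c4. It was abundant in 6419c5 and 6499c4 and low in 2838c3, and differed by 5.53 ± 0.09 from 2838c3 and 0.86 ± 0.09 from 6499c4 (larger adjusted p = 0.000279). Il33, an alarmin, was at 60.9 and 66.4 FPKM in 6419c5, 24.2 and 19.8 in 2838c3 and 31.1 and 29.3 in 6499c4. Il33 differed by 1.49 ± 0.11 from 2838c3 and 1.05 ± 0.11 from 6499c4 (larger adjusted p = 0.000252). Lcn2, a siderophore-binding protein, was at 9.52 and 5.60 FPKM in 6419c5, 1.51 and 0.824 in 2838c3 and 0 and 0 in 6499c4. Lcn2 differed by 1.96 ± 0.21 from 2838c3 and 3.06 ± 0.21 from 6499c4 (larger adjusted p = 0.000276).

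Receptors for cytokines had 9 higher members of 24, and none was lower in limma's test, at an unadjusted p under 0.05 or with limma-voom. Chromosome 16 holds 5 of the 9, and without its genes the count was 4 of 19 and the median went from 0.37 to 0.18. Ifnar2, a chain of the type I interferon receptor, was at 18.0 and 17.8 FPKM in 6419c5, 9.61 and 8.82 in 2838c3 and 5.23 and 6.84 in 6499c4. Il10rb, shared by receptors for interleukin-10 and type III interferon, was at 40.7 and 40.5 FPKM in 6419c5, 15.9 and 15.5 in 2838c3 and 22.2 and 24.1 in 6499c4. Both genes are on chromosome 16 and were highest in 6419c5, with differences of 0.89 and 1.44 and 1.32 and 0.79 (larger adjusted p = 0.00134 and 0.000355). Off that chromosome Il18r1, a chain of the interleukin-18 receptor, was at 8.11 and 5.53 FPKM in 6419c5, 0.367 and 0.539 in 2838c3 and 0.0685 and 0.0783 in 6499c4. Il18r1 differed by 2.41 ± 0.21 from 2838c3 and 2.85 ± 0.21 from 6499c4 (larger adjusted p = 0.000131). Ifnlr1, the other chain for type III interferon, was at 5.97 and 7.24 FPKM in 6419c5, 3.12 and 2.95 in 2838c3 and 2.83 and 3.05 in 6499c4. It lies on chromosome 4, where 16.1% of tested genes were higher and the end was shifted upward, as described below. Ifnlr1 differed by 0.91 ± 0.14 from 2838c3 and 0.94 ± 0.14 from 6499c4 (larger adjusted p = 0.00177).

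Of 25 tested interferon-stimulated genes 8 were higher, with a median of 0.37 (0.34 and 6 of 23 without chromosome 16), and none was lower in limma's test, at an unadjusted p under 0.05 or with limma-voom. Ifi27, Xaf1, Bst2, Ifi35 and Parp9 kept the call without each library. Ifi27 was at 35.9 and 30.2 FPKM in 6419c5, 6.44 and 5.79 in 2838c3 and 4.15 and 5.45 in 6499c4 and differed by 2.26 ± 0.15 from 2838c3 and 2.56 ± 0.15 from 6499c4 (larger adjusted p = 4.25e-05). Bst2, tetherin, which holds virions at the cell surface, was at 77.5 and 69.1 FPKM in 6419c5, 28.2 and 43.1 in 2838c3 and 31.4 and 29.3 in 6499c4 and differed by 1.05 ± 0.17 from 2838c3 and 1.24 ± 0.17 from 6499c4 (larger adjusted p = 0.00198). In both genes the 6419c5 libraries lay above all 4 of the others, and the G-1 library of 2838c3 was the next highest for Bst2.

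Antigen presentation had 6 of 14 tested genes higher (2 without 6419c5 G-1) and a median of 0.33, and none was lower in limma's test, at an unadjusted p under 0.05 or with limma-voom. H2-D1, a class I heavy chain, was at 52.5 and 46.6 FPKM in 6419c5, 23.5 and 26.0 in 2838c3 and 24.2 and 30.4 in 6499c4 and differed by 0.97 ± 0.12 from 2838c3 and 0.84 ± 0.12 from 6499c4 (larger adjusted p = 0.00118). H2-K1, another, was at 114 and 131 FPKM in 6419c5, 55.9 and 67.7 in 2838c3 and 85.6 and 96.0 in 6499c4 and differed by 0.98 ± 0.07 from 2838c3 and 0.43 ± 0.07 from 6499c4 (larger adjusted p = 0.00228). Class I genes are alike enough to share reads.

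Checkpoint and killer-cell ligands went both ways, 6 higher (3 without 6419c5 vehicle or 6419c5 G-1) and 3 lower (1 without 6419c5 vehicle or 6419c5 G-1) of 13. Pvr, a ligand of TIGIT and DNAM-1, was at 60.01 and 52.0 FPKM in 6419c5, 32.9 and 32.1 in 2838c3 and 20.7 and 21.1 in 6499c4. Pvr differed by 0.76 ± 0.09 from 2838c3 and 1.38 ± 0.09 from 6499c4 (larger adjusted p = 0.000382). Ceacam1, an adhesion receptor that binds TIM-3, was at 5.17 and 5.06 FPKM in 6419c5, 0 and 0 in 2838c3 and 0.322 and 0.668 in 6499c4. Ceacam1 differed by 2.61 ± 0.19 from 2838c3 and 2.04 ± 0.19 from 6499c4 (larger adjusted p = 0.000196). H60b, a ligand of the killer-cell receptor NKG2D, was at 7.07 and 3.86 FPKM in 6419c5, 0 and 0 in 2838c3 and 0 and 0 in 6499c4, listed at 0 in the other 4 libraries. H60b differed by 2.65 ± 0.24 from 2838c3 and 2.65 ± 0.24 from 6499c4 (larger adjusted p = 0.000171). Lgals1, galectin 1, was at 1050.4 and 974 FPKM in 6419c5, 2185 and 2368 in 2838c3 and 1383 and 1494 in 6499c4. It was lowest in 6419c5, by -1.17 ± 0.09 from 2838c3 and -0.51 ± 0.09 from 6499c4 (larger adjusted p = 0.00284), but without the 6419c5 G-1 library the larger adjusted p was 0.0766. Cd274 (PD-L1) was low in all lines, at 3.001 and 2.88 FPKM in 6419c5, 1.16 and 0.548 in 2838c3 and 0.991 and 1.37 in 6499c4. Its call (1.11 and 0.86, larger adjusted p = 0.0153) was lost without either 6419c5 library (larger adjusted p = 0.0863 and 0.113) and without the 6499c4 vehicle library (0.0816).

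Complement and coagulation had the highest median of the 29 matrix, immune-signal, contractile and metabolic lists, 1.28, with 8 of 14 higher (5 without 6419c5 G-1) and 1 lower (0 without 2838c3 G-1, 6419c5 G-1 or 6499c4 G-1). Cd55, which protects cells from complement, was at 38.1 and 43.5 FPKM in 6419c5, 3.89 and 4.59 in 2838c3 and 2.29 and 3.46 in 6499c4. It separated 6419c5 from both lines, with differences of 2.997 ± 0.12 from 2838c3 and 3.45 ± 0.12 from 6499c4 (larger adjusted p = 4.62e-06). F3, tissue factor, was at 509.5 and 471 FPKM in 6419c5, 149 and 123 in 2838c3 and 45.0 and 46.2 in 6499c4, highest in 6419c5 and lowest in 6499c4. F3 differed by 1.85 ± 0.09 from 2838c3 and 3.40 ± 0.09 from 6499c4 (larger adjusted p = 7.67e-06). Thbd, thrombomodulin, was at 4.86 and 5.43 FPKM in 6419c5, 0.409 and 0.473 in 2838c3 and 0 and 0 in 6499c4. Thbd differed by 2.09 ± 0.18 from 2838c3 and 2.62 ± 0.18 from 6499c4 (larger adjusted p = 0.000118). The classical pathway proteases C1ra and C1s1 were low but higher, by 1.02 and 1.41 and 1.37 and 2.14 (larger adjusted p = 0.00356 and 0.00136). Thbd and C1ra were below 1 FPKM in each library of the other lines and passed the level filter through 6419c5 alone. Such members raise the share and the median of this list.

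On the prostaglandin and leukotriene list 3 of 14 were higher (21.4%) and 1 lower (7.14%), against 11.2% and 8.51% of all genes. Besides Ptgs2 and Ptges, the remaining higher gene encodes an enzyme that breaks prostaglandins down. Ptges, the synthase of prostaglandin E2 that acts after Ptgs2, was at 10.5 and 10.4 FPKM in 6419c5, 0.0320 and 0.0321 in 2838c3 and 3.38 and 2.98 in 6499c4. It was nearly absent from 2838c3 and highest in 6419c5, and differed by 3.47 ± 0.15 from 2838c3 and 1.45 ± 0.15 from 6499c4 (larger adjusted p = 0.000287). Pla2g4a, the phospholipase that frees arachidonic acid, was lower at 16.9 and 17.9 FPKM in 6419c5, 57.2 and 53.6 in 2838c3 and 26.5 and 26.2 in 6499c4. Pla2g4a differed by -1.61 ± 0.08 from 2838c3 and -0.57 ± 0.08 from 6499c4 (larger adjusted p = 0.0014).

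Genes of NF-kB signalling and innate sensing had 5 higher (0 without 6419c5 G-1, 2 without 6419c5 vehicle and 3 without 2838c3 vehicle or 2838c3 G-1) and 4 lower of 29, and a median of 0.01. The adhesion molecules Icam1 and Vcam1, which hold leukocytes, were lower. Icam1 was at 3.42 and 3.26 FPKM in 6419c5, 26.0 and 27.6 in 2838c3 and 13.5 and 10.1 in 6499c4 and differed by -2.68 ± 0.14 from 2838c3 and -1.55 ± 0.14 from 6499c4 (larger adjusted p = 0.000139). Vcam1 was at 14.6 and 14.2 FPKM in 6419c5, 75.7 and 67.3 in 2838c3 and 27.0 and 20.7 in 6499c4 and differed by -2.23 ± 0.10 from 2838c3 and -0.68 ± 0.10 from 6499c4 (larger adjusted p = 0.00137). Both were highest in 2838c3. Traf1, a receptor adaptor induced by NF-kB, was lower too (-1.47 and -1.10, larger adjusted p = 0.00246). None of the 5 higher members, among them the RNA sensor Ifih1 (1.37 and 0.91), passed without the 6419c5 G-1 library, where Ifih1 had a larger adjusted p of 0.0651.

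Over the 9 metabolic lists 42 of 294 tested genes were higher (14.3%) and 39 lower (13.3%), against 11.2% and 8.51% of all genes. Without the vehicle library of 6419c5 the counts were 18 and 18, and without its G-1 library 20 and 22. Fatty acid and lipid metabolism was the list with the most lower genes, 15 of 40 tested, beside 1 higher (0 without 6419c5 vehicle), and had a median of -0.28. The lower count was 5 without 6419c5 vehicle and 8 without 2838c3 vehicle, and Dgat1, Elovl5 and Acsl5 kept the call without each library. Dgat1, which makes triglyceride, was at 5.26 and 5.97 FPKM in 6419c5, 10.3 and 11.4 in 2838c3 and 8.53 and 10.2 in 6499c4, lowest in 6419c5. Dgat1 differed by -0.84 ± 0.11 from 2838c3 and -0.65 ± 0.11 from 6499c4 (larger adjusted p = 0.00286). Elovl5, an elongase of polyunsaturated fatty acids, was at 52.8 and 53.6 FPKM in 6419c5, 92.6 and 88.7 in 2838c3 and 70.1 and 73.4 in 6499c4. Elovl5 differed by -0.76 ± 0.07 from 2838c3 and -0.42 ± 0.07 from 6499c4 (larger adjusted p = 0.00276). Acsl5, which activates long-chain fatty acids, was at 157 and 169.7 FPKM in 6419c5, 214 and 214 in 2838c3 and 219.7 and 219 in 6499c4. Acsl5 differed by -0.39 ± 0.07 from 2838c3 and -0.42 ± 0.07 from 6499c4 (larger adjusted p = 0.00274). The desaturase Scd1 was at 53.7 and 69.3 FPKM in 6419c5, 168 and 199 in 2838c3 and 73.2 and 82.3 in 6499c4, with its larger gap from 2838c3. Scd1 differed by -1.57 ± 0.08 from 2838c3 and -0.34 ± 0.08 from 6499c4 (larger adjusted p = 0.00896). It lost the call without the 6419c5 vehicle library (larger adjusted p = 0.0849) and without the 6499c4 vehicle library (0.0625).

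The TCA cycle and respiratory chain had 9 lower (3 without 6419c5 G-1) and 4 higher (1 without 6419c5 vehicle) genes of 43, with a median of -0.18. Sucla2, a subunit of succinyl-CoA ligase, was at 25.5 and 26.1 FPKM in 6419c5, 38.0 and 37.5 in 2838c3 and 36.0 and 38.2 in 6499c4. Sucla2 differed by -0.53 ± 0.08 from 2838c3 and -0.51 ± 0.08 from 6499c4 (larger adjusted p = 0.00185). Of the 9 lower genes 5 lie on chromosome 9, where 25.7% of all tested genes were lower: Sdhd, Dlat, Idh3a, Cox5a and Me1. Without that chromosome 4 of 36 were lower and the median was -0.10. Sdhd, an anchor of succinate dehydrogenase, was at 89.4 and 90.6 FPKM in 6419c5, 111 and 126 in 2838c3 and 149 and 157 in 6499c4, with 6419c5 below both lines. Sdhd differed by -0.39 ± 0.07 from 2838c3 and -0.76 ± 0.07 from 6499c4 (larger adjusted p = 0.00356). The citrate carrier Slc25a1, on chromosome 16, was higher, at 161 and 181 FPKM in 6419c5, 85.2 and 104 in 2838c3 and 85.1 and 114 in 6499c4. Slc25a1 differed by 0.85 ± 0.08 from 2838c3 and 0.79 ± 0.08 from 6499c4 (larger adjusted p = 0.000257).

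Glycolysis genes had 9 higher and 3 lower of 32 and a median of 0.07. The higher count was 3 without 6419c5 vehicle or 6419c5 G-1 and 4 without 2838c3 vehicle or 2838c3 G-1, and the lower count 0 without 6419c5 vehicle and 1 without 6419c5 G-1. Hk2, the hexokinase that commits glucose, was at 64.7 and 54.2 FPKM in 6419c5, 35.0 and 30.8 in 2838c3 and 40.8 and 35.7 in 6499c4, above both lines. Hk2 differed by 0.83 ± 0.07 from 2838c3 and 0.62 ± 0.07 from 6499c4 (larger adjusted p = 0.000532). Eno3, an enolase of muscle, was at 121 and 97.2 FPKM in 6419c5, 53.4 and 50.9 in 2838c3 and 53.9 and 44.6 in 6499c4, where 6419c5 stood above a level shared by the others. Eno3 differed by 1.04 ± 0.08 from 2838c3 and 1.13 ± 0.08 from 6499c4 (larger adjusted p = 8.93e-05). Pkm, pyruvate kinase, was lower at 986 and 1017 FPKM in 6419c5, 1623 and 1705 in 2838c3 and 1341 and 1314 in 6499c4, by -0.73 and -0.41 (larger adjusted p = 0.00378, or 0.0706 and 0.0656 without the vehicle or the G-1 library of 6419c5).

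The creatine, arginine and urea cycle list had 5 higher members of 15 (2 without 6419c5 G-1 and 3 without 2838c3 vehicle, 2838c3 G-1 or 6419c5 vehicle), and none was lower in limma's test, at an unadjusted p under 0.05 or with limma-voom. Gatm and Sat1 kept the call without each library. Sat1, which acetylates polyamines for export, was at 96.4 and 101 FPKM in 6419c5, 61.6 and 61.0 in 2838c3 and 73.7 and 73.7 in 6499c4. Sat1 differed by 0.68 ± 0.07 from 2838c3 and 0.42 ± 0.07 from 6499c4 (larger adjusted p = 0.00255). Gamt, which completes creatine synthesis after Gatm, was at 10.8 and 10.7 FPKM in 6419c5, 3.34 and 3.23 in 2838c3 and 10.1 and 12.4 in 6499c4, lower in 2838c3 than in the other 2 lines, and the transporter Slc6a8 was at 25.3 and 24.5 FPKM in 6419c5, 20.8 and 19.7 in 2838c3 and 21.3 and 23.1 in 6499c4. Neither was called, with differences of 1.46 and -0.05 and 0.29 and 0.16 (both chosen after their values were seen).

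Among 48 glutathione, detoxification and redox genes 8 were higher (5 without 6419c5 vehicle) and 4 lower, with a median of 0.23 (0.18 without chromosome 16). Aldh1a1, which makes retinoic acid, was at 33.8 and 27.1 FPKM in 6419c5, 4.26 and 4.50 in 2838c3 and 2.42 and 2.82 in 6499c4. Aldh1a1 differed by 2.54 ± 0.14 from 2838c3 and 3.11 ± 0.14 from 6499c4 (larger adjusted p = 2.01e-05). Its close relative Aldh1a7 was higher with it, and their reads could be shared. Cyp1b1, a target of the aryl hydrocarbon receptor, was at 46.1 and 121 FPKM in 6419c5, 1.71 and 8.11 in 2838c3 and 8.88 and 24.01 in 6499c4. Its level was higher under G-1 in each line, and both 6419c5 libraries stood above the other 4, with differences of 3.93 ± 0.12 from 2838c3 and 2.27 ± 0.12 from 6499c4 (larger adjusted p = 1.61e-05). Mgst2, a microsomal transferase, was lower at 18.5 and 17.2 FPKM in 6419c5, 31.9 and 41.0 in 2838c3 and 41.9 and 47.6 in 6499c4. Mgst2 differed by -0.98 ± 0.11 from 2838c3 and -1.28 ± 0.11 from 6499c4 (larger adjusted p = 0.000426).

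Of 15 tested genes on the amino acid transporter list 1 was higher, Slc43a3, which is known as a carrier of purine nucleobases and not of amino acids. Its level was 8.99 and 8.47 FPKM in 6419c5, 0 and 0.0451 in 2838c3 and 1.18 and 1.25 in 6499c4. Slc43a3 differed by 3.25 ± 0.16 from 2838c3 and 2.14 ± 0.16 from 6499c4 (larger adjusted p = 7.43e-05). None was called lower in limma's test (1 at an unadjusted p under 0.05, 1 with limma-voom and 1 without the 6499c4 vehicle library). Serine, glycine, proline and one-carbon genes had 4 higher (1 without 6419c5 G-1 and 2 without 6419c5 vehicle) and 2 lower (0 without 6419c5 vehicle and 1 without 2838c3 vehicle, 2838c3 G-1 or 6499c4 vehicle) of 36 and a median of 0.01. Nucleotide metabolism had 5 higher (1 without 6419c5 vehicle, 2 without 6419c5 G-1 and 3 without 2838c3 vehicle or 2838c3 G-1) and 4 lower (2 without 6419c5 G-1) of 40. Paics, a purine synthesis enzyme, was lower at 147 and 149 FPKM in 6419c5, 232 and 229.8 in 2838c3 and 212 and 205 in 6499c4. Paics differed by -0.64 ± 0.07 from 2838c3 and -0.49 ± 0.07 from 6499c4 (larger adjusted p = 0.000914). The pyrimidine enzyme Umps, on chromosome 16, was higher (0.56 and 0.78, larger adjusted p = 0.000814). The pentose phosphate, glycogen and hexosamine list had 5 higher (1 without 6419c5 G-1, 2 without 6419c5 vehicle and 3 without 6499c4 vehicle or 6499c4 G-1) and 2 lower (0 without 6419c5 vehicle and 1 without 6419c5 G-1 or 6499c4 G-1) of 25. Taldo1, of the nonoxidative branch, was at 148 and 149 FPKM in 6419c5, 101 and 107 in 2838c3 and 105 and 109 in 6499c4, above both lines. Taldo1 differed by 0.51 ± 0.07 from 2838c3 and 0.47 ± 0.07 from 6499c4 (larger adjusted p = 0.00125).

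**Figure D4:**
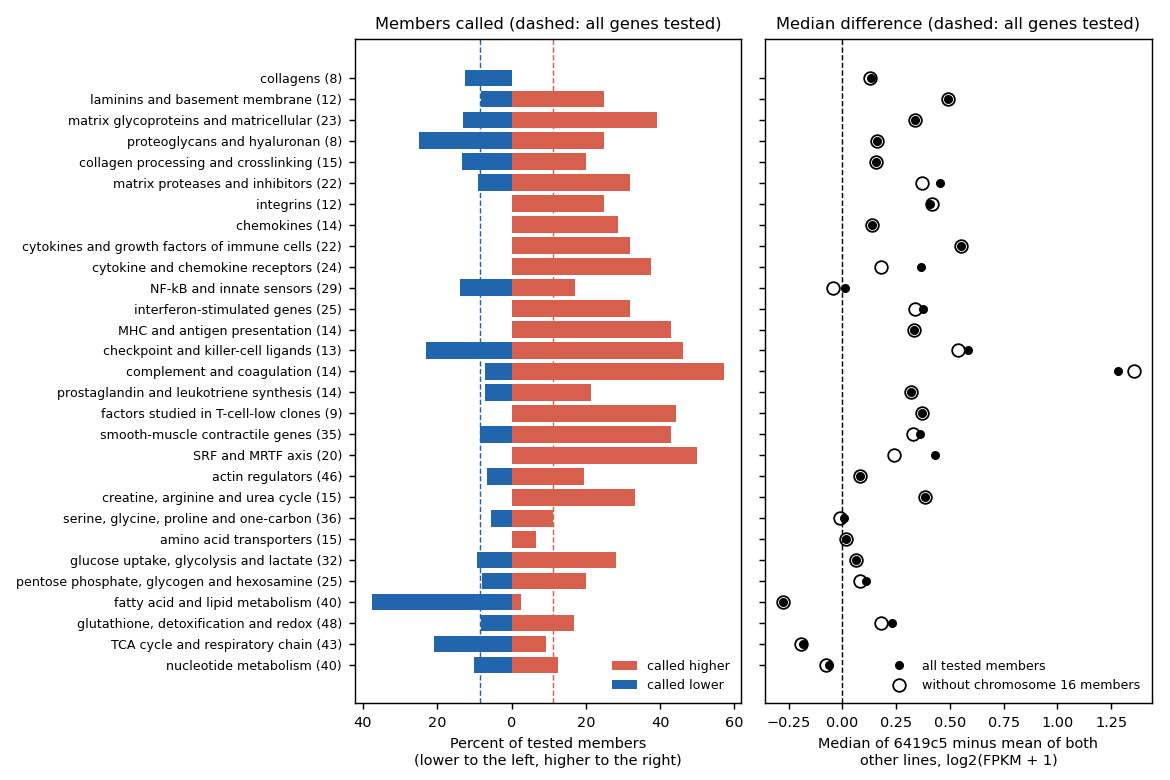
Percent of tested members called higher (red) or lower (blue) in 6419c5 for each matrix, immune-signal, contractile and metabolic list, with the number tested in brackets (left), and the median log2(FPKM + 1) difference with and without genes of chromosome 16 (right). Dashed lines give the same for all 10748 genes, 11.2% higher and 8.51% lower. Complement and coagulation stands farthest to the right and fatty acid and lipid metabolism farthest to the left.

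Epithelial and mesenchymal genes were each found among the calls. Of 23 ductal and epithelial genes 4 were higher and 2 lower (0 without 6419c5 vehicle and 1 without 2838c3 G-1 or 6419c5 G-1), and of 11 mesenchymal genes 5 were higher and 1 lower (0 without 6419c5 G-1), with medians of 0.15 and 0.64. The epithelial shares, 17.4% higher and 8.70% lower, were near those of all genes, 11.2% and 8.51%. Jup, plakoglobin of cell junctions, was at 102 and 104 FPKM in 6419c5, 42.8 and 46.2 in 2838c3 and 62.3 and 65.2 in 6499c4. Jup differed by 1.20 ± 0.07 from 2838c3 and 0.69 ± 0.07 from 6499c4 (larger adjusted p = 0.000266). Tjp1, the tight junction protein ZO-1, was at 75.7 and 79.1 FPKM in 6419c5, 44.2 and 41.7 in 2838c3 and 52.1 and 47.2 in 6499c4. Tjp1 differed by 0.83 ± 0.08 from 2838c3 and 0.63 ± 0.08 from 6499c4 (larger adjusted p = 0.000704). Vim, vimentin, was at 2878 and 2862 FPKM in 6419c5, 1891 and 2038 in 2838c3 and 1110.1 and 1087 in 6499c4, in the order 6419c5, 2838c3, 6499c4. Vim differed by 0.55 ± 0.08 from 2838c3 and 1.38 ± 0.08 from 6499c4 (larger adjusted p = 0.0011). S100a4, a calcium-binding protein of motile cells, was at 201 and 205 FPKM in 6419c5, 50.8 and 61.8 in 2838c3 and 97.0 and 112 in 6499c4. S100a4 differed by 1.84 ± 0.08 from 2838c3 and 0.95 ± 0.08 from 6499c4 (larger adjusted p = 0.000119). Of 12 pancreatic cancer driver genes none was called in limma's test or at an unadjusted p under 0.05 (1 higher and 1 lower with limma-voom, 1 higher without the 6419c5 vehicle library).

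Position on the chromosome separated 6419c5 as well. Of 351 tested genes that RefSeq places on chromosome 16, 242 (68.9%) were higher in 6419c5 and 3 (0.855%) were lower, against 11.2% and 8.51% of all genes. The median log2 difference of these genes was 0.62 from 2838c3 and 0.75 from 6499c4, and 86.6% of them lay above both lines. Over the 273 with a mean of at least 5 FPKM, the median ratio of mean levels was 1.57 to 2838c3 and 1.73 to 6499c4. Over whole chromosomes, the percentages of higher genes on the others ran from 2.53 to 17.8 and the medians from -0.32 to 0.20 against the mean of both lines. The shift held in both treatments, with a median of 0.65 in vehicle and 0.69 under G-1.

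It also ran the length of the chromosome. When the 351 genes were put in order and cut into 10 runs of 35 or 36, the median lay between 0.47 and 0.93 in each run and the share called higher between 51.4% and 82.9%. The 3 lower genes included Clic6 and Igsf5, both among the 15 most separated lower genes. A run at the end of chromosome 4 was shifted the same way. Of 10 runs of 67 genes there, the last had a median of 0.55 and 53.7% of genes higher, the 2 before it had 37.3% and 29.9% higher, and the first 6 had medians of -0.23 to -0.08. Shifts to lower levels were smaller in size than that of chromosome 16. On chromosome 9, 25.7% of 614 genes were lower, with a median of -0.27, and of 10 runs in order the first 2 had medians of 0.09 and 0.02, while the next 4 lay between -0.46 and -0.41. Chromosome 13 had 20.5% of genes lower and a median of -0.31, and chromosome 14 a median of -0.32, against the mean of both lines. On these chromosomes the gap was larger from 2838c3 than from 6499c4. The medians from 2838c3 and from 6499c4 were -0.46 and -0.18 on chromosome 13 and -0.52 and -0.12 on chromosome 14. On chromosome 9 they were -0.33 and -0.20. Genes were assigned by name, and DNA was not measured.

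**Figure D5:**
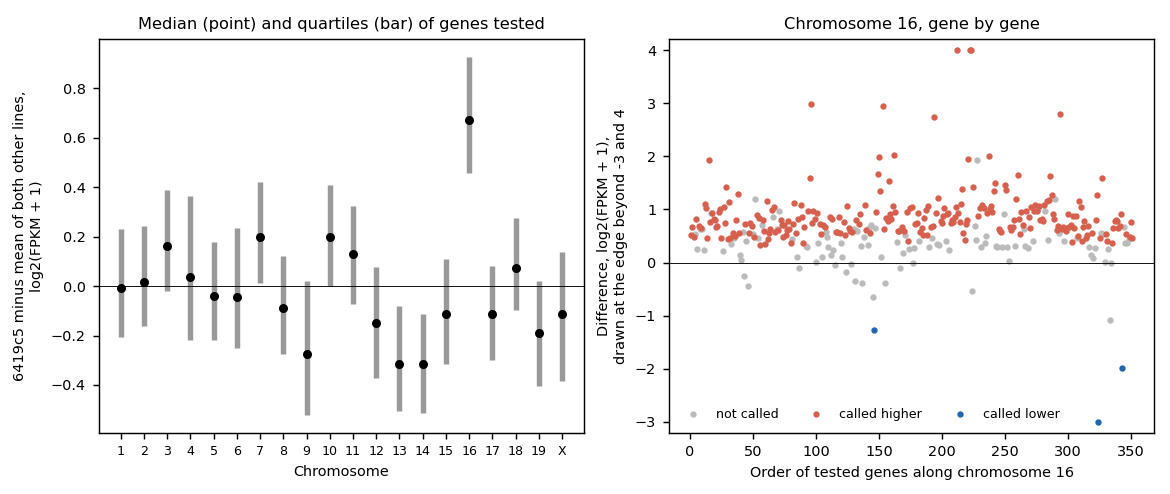
Median and quartiles of the log2(FPKM + 1) difference of 6419c5 from the mean of both other lines for the tested genes of each chromosome (left), and the difference of each of 351 tested genes in their order along chromosome 16 (right). Chromosome 16 has a median of 0.67, and its higher genes (red) are spread over the whole order.

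Chromosomes 16 and 9 touched the lists unevenly. Of 726 listed genes tested 166 were higher, and 20 of these are among the 28 listed genes on that chromosome. Without its genes the counts over all genes were 964 higher and 912 lower of 10397. The matrix glycoprotein, chemokine, cytokine, antigen presentation and lipid lists had no tested member there, and the complement list had 2, neither of them called, so their counts are the same without it. Of the lower genes described above Elovl5, Pkm and Icam1 lie on chromosome 9 as well. Elovl5 and Pkm are in runs with medians of -0.46 and -0.44, and Icam1 is in the first run, with a median of 0.09. Without the genes of chromosome 9 the counts over all genes were 1175 higher and 757 lower of 10134, and outside the TCA and respiratory chain list no list lost more than 1 lower gene. Higher genes described above that lie on chromosome 4 include Ifnlr1, Epha2 and Tnc, and that chromosome was not left out. The part of these chromosomes in the results was not tested.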

How the data were processed

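RNA-seq FPKM for 24421 gene names in 6 libraries were analysed as deposited by the authors. The submitters' processing notes name STAR and DESeq2, without versions or roles, while the build, annotation and counting rule were not given in these sources. The model was limma 3.58.1 (R 4.3.3) on log2(FPKM + 1), with terms for line and treatment, a variance trend and Benjamini-Hochberg adjustment over the 10748 genes whose mean reached 1 FPKM. It left 2 residual degrees of freedom, and all tests were two-sided. The larger adjusted p is the larger of a gene's 2 pairwise values. FPKM values of a gene moved in equal steps, from which whole reads were recovered for all 15712 genes above 0, and limma-voom on these reads served as an alternative (1464 higher, 1081 lower). Reads are not independent molecules. The script was tested on simulated data.

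The genes named are Rhox5, Gatm and Acta2, up to 15 called genes per direction with the largest smaller difference, and up to 6 called members per list. A few genes that this rule picks are not reported here. Other names, mostly list members that kept their call without each library, were chosen after their values were seen. The members and the gene lists were chosen with earlier results of these data known. Chromosomes and promoters come from RefSeq (GRCm38.p6), matched by name for 10706 of the tested genes and not for 42. Alternatives covered the pseudocount, the filter, the model, the scaling and leaving out each library. Leaving out chromosomes 16 and 9 was added after seeing the data. Numbers were computed with Python 3.11.15.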

Additional observations from a re-analysis of the deposited data

Results flagged for a closer look

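Some genes under the level filter of the comparison had reads in both 6419c5 libraries and were listed at 0 in the other 4. A search for such genes with at least 20 reads in each 6419c5 library found 6, and none of them entered the test. Trib2, a pseudokinase, had a mean of 1.71 FPKM in 6419c5, from 46 and 43 reads in the vehicle and G-1 libraries. Complement component C2 had a mean of 2.32 FPKM, from 51 and 28 reads. Cdh5, the cadherin of endothelial junctions, had a mean of 1.3 FPKM, from 45 and 22 reads. The endothelial markers Pecam1 and Emcn were listed at 0 in both 6419c5 libraries. The remaining means were 1.32 FPKM for Fam198b, 1.2 for Mctp2 and 0.826 for the myosin gene Myh15. A listed 0 allows up to 3 reads in each of the other libraries, counting error only. No explanation was tested.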

How the results depend on the processing

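Called genes named in the text did not change direction under any alternative run. Of the 183 called genes that the naming rule picks 126 kept the call in every alternative. Of the 146 called genes named in the text 126 did, but many of these were named because they kept the call without each library. Rhox5, Gatm, Acta2 and the 15 most separated genes in each direction kept the call throughout.

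Counts moved more. With 1 library left out, 673 to 1026 genes were higher and 395 to 714 lower, and the fewest calls came without the 6419c5 G-1 library. At an adjusted p under 0.01 the counts were 736 and 436, and with the contrast against the mean of both other lines alone 2118 and 1954. Genes higher by at least 1 log2 unit numbered 104 with a filter of 5 FPKM and 348 with limma-voom, against 221. Genes lower by at least 1 numbered 171 with a pseudocount of 0.1 FPKM, 45 with the filter of 5 FPKM and 210 with limma-voom, against 86. By construction, a pseudocount of 1 FPKM shrinks the log2 differences of low genes more than 0.1 FPKM does, and the stricter filter leaves 8229 genes. How much each adds to these changes was not tested. Quantile normalization took the higher share of calls from 56.9% to 49.8% and equal read totals to 49.0%, with a median over all genes within 0.04 log2 units of 0.

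Each line has 1 library per treatment, so line and culture cannot be told apart, and low genes rest on few reads. A single clone stands for each line, and no value here comes from tumours.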

Other observations

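Genes of other lining epithelia stood out among the most separated genes of 6419c5, and a pair of lists was drawn up after this was seen, so their counts describe and test nothing. Of 13 mesothelial markers 7 were tested and 5 were higher in 6419c5: Wt1, Bnc1, Upk1b, Gpm6a and Upk3b. Gpm6a, a membrane glycoprotein, was at 8.78 and 7.70 FPKM in 6419c5 (vehicle, then G-1), listed at 0 in both 2838c3 libraries and at 0.0615 and 0 in 6499c4. Upk3b, a uroplakin, was at 5.84 and 2.62 FPKM in 6419c5, 0.402 and 0.0576 in 2838c3 and 2.04 and 1.72 in 6499c4. Its call was lost without the 6419c5 vehicle or the 6499c4 vehicle library. Msln, mesothelin, did not follow: it was at 337 and 357 FPKM in 6419c5, 252 and 260.3 in 2838c3 and 651 and 590.1 in 6499c4. Calb2, Rspo1 and Dpp4 were listed at 0 in all 6 libraries.

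Of 9 gastric surface genes 4 were tested and all 4 were higher in 6419c5. Beside Gkn1 and Gkn2, Anxa10, an annexin of gastric epithelium, was at 61.1 and 56.6 FPKM in 6419c5, 30.8 and 25.96 in 2838c3 and 33.9 and 30.98 in 6499c4. Tff1, a trefoil peptide, was at 38.95 and 40.7 FPKM in 6419c5, 26.4 and 21.6 in 2838c3 and 7.997 and 9.13 in 6499c4. Both kept the call without each library in turn. The mucin genes Muc5ac and Muc6 were at most 0.634 FPKM in any library, and Pgc was listed at 0 in all 6.

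Genes listed at 0 in all 4 libraries of the other lines and called higher in 6419c5 numbered 7, among them H60b, Lrrk2, Glyat, S100a9, Arhgdib and Rps4l. Those listed at 0 in both 6419c5 libraries and called lower numbered 5: Mical1, Lrig3, Sncg, Cyp2j6 and Bmp8b.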
